A study of Mus musculus with 10 samples.

Results

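Runx1, Runx2 and Runx3, the 3 RUNX transcription factor genes, and Cbfb, the gene of their shared partner protein, were followed in cultured mouse aortic smooth muscle cells with and without Adamts7 overexpression. The members were taken by gene symbol, 4 of the 36144 genes of the expression table, together with the footprint motifs whose name begins with RUNX, 3 of 879. The overexpression cells carried VSMC-specific Adamts7 overexpression with Myh11-Cre-ERT2, a Cre driver of smooth muscle that needs tamoxifen to act, and the other cells were labelled Wild type. No Cre driver is named for the wild-type mice, and tamoxifen treatment is not stated in the labels, so driver, drug and overexpression cannot be told apart. All cells came from the aortic media of male mice 8 weeks old, with the adventitia removed, and were grown for 2 to 7 passages; the passage of a given library is not stated. RNA was sequenced from 3 mice per genotype and ATAC-seq, which reads open chromatin, was done on 50000 cells from each of 2 mice per genotype.

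RUNX proteins bind DNA through the runt domain, and CBFB, which does not itself touch DNA, holds that domain in its binding shape. The 3 RUNX proteins read the same core sequence, TGTGGT, and act as activators or repressors according to their partners. RUNX1 is known for blood stem cell and myeloid development, RUNX2 for bone formation and for the calcification of vascular smooth muscle, and RUNX3 for cytotoxic T cells, myeloid cells and sensory neurons.

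The promoters of the RUNX genes themselves carry the RUNX core, and they are shown because the same paired sites occur in all 3 genes. In the RefSeq promoter table for GRCm38.p6 (250 bases before to 50 after a start site), all 4 members were matched, with 2 start sites for Runx1, 1 for Runx2, 2 for Runx3 and 1 for Cbfb. The strings searched were TGTGGT and its reverse complement ACCACA; capitals mark them, and each sequence runs 5′ to 3′ along the gene's strand.
Runx1, chr16:92826025-92826054, minus strand: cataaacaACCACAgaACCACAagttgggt
Runx2, chr17:44814583-44814612, minus strand: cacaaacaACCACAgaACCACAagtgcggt
Runx3, chr4:135120503-135120532, plus strand: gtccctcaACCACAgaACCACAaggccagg
Runx2, second stretch, chr17:44814690-44814719, minus strand: gtgaggtcacaaACCACAtgattctgtctc

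The first 3 stretches share a run of 18 bases that holds 2 copies of the core, 8 bases from the start of one to the start of the next. The run was found in 4 of 32851 promoters, those of Runx1, Runx2 and Runx3 and that of Gm16225, a non-coding gene whose promoter overlaps the Runx3 one. A pair of cores at that spacing on one strand, a search set after the sequences were seen, occurred in 7 promoters, 0.0213% of all. The paired sites began 28 and 36 bases after the start site in Runx1, 23 and 31 bases after it in Runx2, and 134 and 126 bases before it in Runx3. The core alone was present in 16.8% of all promoters, and the other start sites of Runx1 and Runx3 and that of Cbfb did not hold it. A match is a stretch of letters in this window and not a measured binding site.

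**Figure D1:**
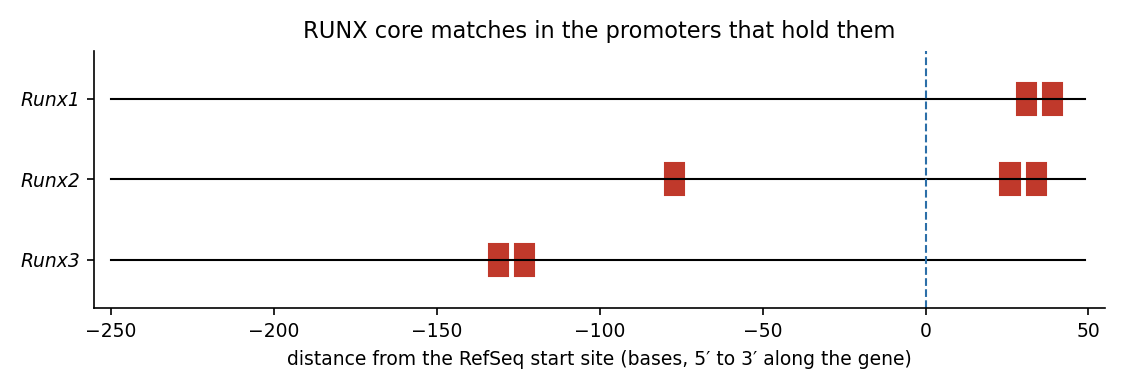
Position of each RUNX core match (red boxes, 6 bases wide) in the 300-base promoters of Runx1, Runx2 and Runx3 that hold one, as distance in bases from the RefSeq start site (dashed line at 0). The paired matches lie after the start site in Runx1 and Runx2 and before it in Runx3, at -134 and -126.

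Adamts7 checked the labels, with 98.7, 79.1 and 75.8 TPM in the overexpression libraries, against 6.08, 6.18 and 8.20 TPM in the wild-type libraries. TPM, the deposited unit, is transcript abundance corrected for length, so that genes can be compared with each other; it keeps no record of read number, and the sequencing depth is therefore unknown. The 13131 genes whose TPM averaged 1 or more were tested with limma on log2(TPM + 1), a scale that understates changes of low genes; p-values were adjusted over all of them and the threshold was 0.05. Only 2 genes, 0.0152% of those tested, were called, Adamts7 and a predicted gene model, both higher in overexpression. Overexpression replicate 3 stood apart, in that its score on the first principal component was -0.67, against 18.6 and 39.4 for overexpression replicates 1 and 2 and -20.3 to -16.8 for wild type. Without it 789 genes, 6.01%, were called, 511 of them higher (3.89% of those tested) and 278 lower (2.12%).

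Markers of other cell types moved with genotype in these libraries. Over all tested genes, 10.6% were higher and 8.94% lower at an unadjusted p under 0.05. Of 21 macrophage markers, 21 were higher at an unadjusted p under 0.05. Limma called 0 of them after adjustment, against 0.0152% of all tested genes. Without overexpression replicate 3 it called 20 of them higher, against 3.89% of all tested genes. The macrophage markers' median log2 distance from the mean of wild type was 2.22, 2.02 and 0.73 in overexpression replicates 1, 2 and 3, against -0.25 to 0.22 in wild type. Their summed level was 1288 to 4121 TPM in overexpression and 543 to 800 TPM in wild type, with Lyz2 and C1qa the most abundant; Lyz2 has a close copy with which it may share reads. Of 16 endothelial markers, led by Emcn and Cdh5, 12 were lower at an unadjusted p under 0.05, and the list summed to 2632 to 4372 TPM in overexpression and 5177 to 5701 TPM in wild type. The lymphocyte and natural killer markers summed to 10.3 to 12.2 TPM in overexpression and 12.4 to 14.8 TPM in wild type, and Cd3e, Nkg7, Gzma and Klrb1c were listed at 0 in all 6 libraries; the most abundant were Lck and Il7r. The smooth muscle markers, led by Cald1 and Acta2, had 9 of 13 higher at an unadjusted p under 0.05. They summed to 5042 to 6884 TPM in overexpression and 4311 to 4460 TPM in wild type. That sum of 13 markers was below the sum of the 16 endothelial markers in every wild-type library and above it in every overexpression library. The adventitial fibroblast markers, led by Cd34 and Gsn, had 2 of 7 higher and 2 lower. In bulk RNA, more cells of a type and more RNA per cell cannot be told apart.

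Among the DNA-binding members, Runx1 and Runx2 were the more abundant and Runx3 the least in both genotypes. None of the 4 members was called by limma, which called 0.0152% of all tested genes. All 4 passed the filter on low values, Runx3 only through overexpression replicates 1 and 2. The libraries of the genotypes overlapped for each member, where 27.2% of the tested genes had libraries that did not overlap. At an unadjusted p under 0.05 stood 1 of the 4, Runx1, against 19.5% of the tested genes.

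Runx1 (ENSMUSG00000022952.17, chromosome 16, 92601466 to 92826074 in mm10) was measured at 7.10, 6.86 and 3.84 TPM in overexpression, against 4.30, 2.81 and 2.78 TPM in wild type. Overexpression replicates 1 and 2 were above every wild-type library, and overexpression replicate 3 was below wild-type replicate 1. The means were 5.93 ± 1.81 TPM in overexpression and 3.29 ± 0.87 TPM in wild type (SD, n = 3 each), a ratio of 1.80. On the log2(TPM + 1) scale the fold change was 0.67 ± 0.24 (SE), with a 95% interval of 0.11 to 1.23 and a limma adjusted p of 0.202. An exact two-sided permutation test of the 6 libraries gave p = 0.2, where 3 against 3 cannot go below 0.1. Without overexpression replicate 3, where limma called 6.01% of all tested genes, the log2 fold change was 0.91 and Runx1 was called (limma adjusted p = 0.0425). The limma adjusted p-values of the alternatives spanned 0.0106 to 0.427. The smallest of these came with libraries weighted by quality, a fit that called 20.8% of all tested genes.

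Runx3 (ENSMUSG00000070691.10, chromosome 4, 135120645 to 135177990) was the lowest of the 4 members in mean TPM in both genotypes. It had 2.51, 3.05 and 0.582 TPM in overexpression, against 0.874, 0.814 and 0.831 TPM in wild type. Overexpression replicates 1 and 2 lay above all wild-type libraries, and overexpression replicate 3 lay below all of them. Only overexpression replicates 1 and 2 were above 1 TPM, and Runx3 passed the filter on low values through them. The means were 2.05 ± 1.30 TPM in overexpression and 0.839 ± 0.031 TPM in wild type (SD, n = 3 each). The log2 fold change was 0.62 ± 0.35 (SE), with an interval of -0.20 to 1.44 (limma adjusted p = 0.369; exact permutation p = 0.4). Without overexpression replicate 3 it was 1.04, and limma called Runx3 (adjusted p = 0.0251), as it did 6.01% of all tested genes. The limma adjusted p-values of the alternatives spanned 0.0251 to 0.649.

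**Figure D2:**
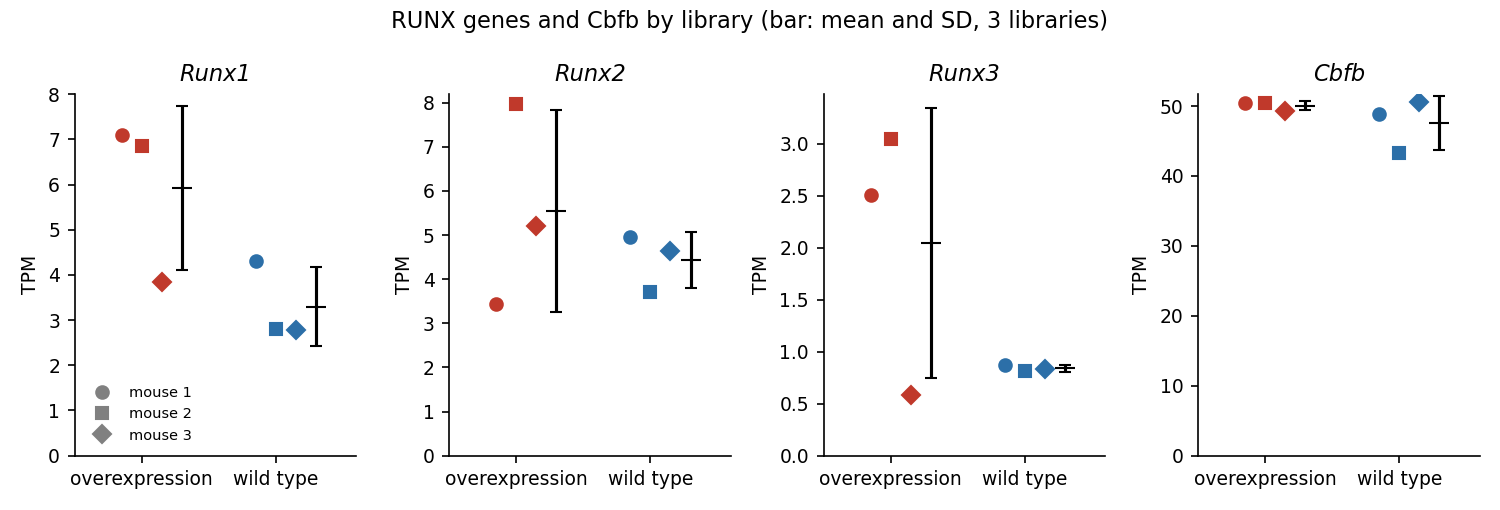
TPM of Runx1, Runx2, Runx3 and Cbfb in each library, overexpression (red) left of wild type (blue); symbols mark the mouse number within a genotype and black bars the mean and SD of 3 libraries. Overexpression replicate 3 (diamond) is at 3.84 TPM for Runx1 and 0.582 TPM for Runx3, apart from overexpression replicates 1 and 2.

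The overexpression libraries in which Runx1 and Runx3 were high were those in which the macrophage markers were high. The macrophage median was 2.22 and 2.02 in overexpression replicates 1 and 2, which had the highest Runx1 and Runx3 values of the 6 libraries. In overexpression replicate 3 the macrophage median was 0.73, above every wild-type library, while Runx3 was at its lowest and Runx1 was within the wild-type range. Macrophages express both genes, as background knowledge, and their part in the Runx1 and Runx3 values was not tested. The smooth muscle markers had medians of 0.61, 0.56 and 0.23 in overexpression replicates 1, 2 and 3, against -0.08 to 0.07 in wild type, and the endothelial markers -0.43, -0.92 and -0.22, against -0.07 to 0.09, so other lists also set overexpression replicate 3 nearest to wild type. Of the lymphocyte markers, Cd3e was at 0 in all libraries and Cd8a, a gene RUNX3 is known to activate, did not exceed 0.203 TPM in any, while Lck was at 6.49 to 8.75 TPM in overexpression and 10.1 to 12.4 TPM in wild type. Il7r, a receptor gene of lymphocytes, was at 1.76, 1.10 and 0.603 TPM in overexpression, against 0.256, 0.359 and 0.336 TPM in wild type.

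**Figure D3:**
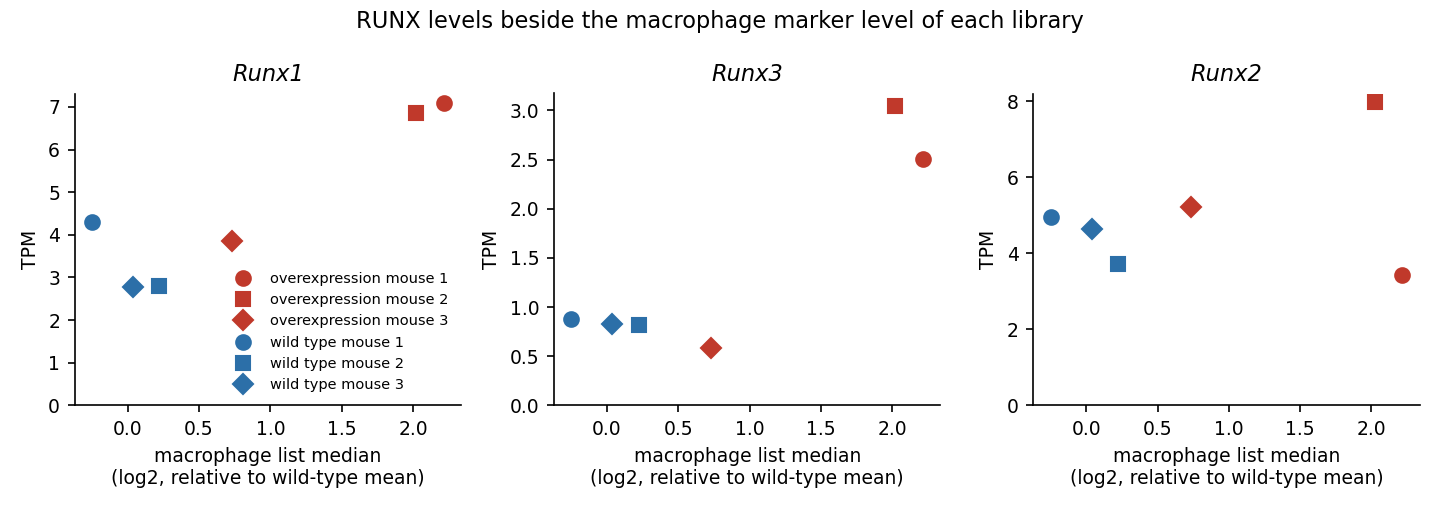
TPM of Runx1, Runx3 and Runx2 (vertical axes) against the median level of 21 macrophage markers in the same library (horizontal axes, log2 relative to the wild-type mean); red is overexpression, blue wild type, and symbols mark the mouse. For Runx1 and Runx3 the 2 libraries at the right, overexpression replicates 1 and 2, are also the highest, whereas Runx2 is at 3.43 and 7.97 TPM in them.

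Runx2 (ENSMUSG00000039153.16, chromosome 17, 44495987 to 44814797) was measured at 3.43, 7.97 and 5.21 TPM in overexpression, against 4.95, 3.72 and 4.63 TPM in wild type. Both the lowest and the highest of the 6 values were overexpression libraries. The means were 5.54 ± 2.29 TPM in overexpression and 4.43 ± 0.64 TPM in wild type (SD, n = 3 each). The log2 fold change was 0.21 ± 0.25 (SE), with an interval of -0.38 to 0.81 (limma adjusted p = 0.677; exact permutation p = 0.6). Its direction rested on overexpression replicate 2: without that library the log2 fold change was -0.043, and with libraries weighted by quality it was -0.17. Of 16 osteoblast and chondrocyte markers 5 could be tested, Col10a1, Col2a1, Acan, Sox9 and Comp, which are cartilage genes. Their median log2 distance from wild type was 2.43 in overexpression replicate 2, against 0.82 and 0.50 in overexpression replicates 1 and 3 and -0.02 to 0.08 in wild type. In overexpression replicates 1 and 3 that median was the value of Col10a1 itself. Col10a1 averaged 0.709 TPM in wild type and passed the filter on low values through its overexpression values. Of that list, Col2a1, the collagen of cartilage, stood at 91.2, 206 and 33.0 TPM in overexpression, against 11.7, 10.9 and 10.6 TPM in wild type.

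Cbfb (ENSMUSG00000031885.14, chromosome 8, 105170674 to 105217989) was the most abundant member in every library. It had 50.4, 50.4 and 49.3 TPM in overexpression, against 48.9, 43.2 and 50.5 TPM in wild type. The means were 50.1 ± 0.67 TPM in overexpression and 47.6 ± 3.82 TPM in wild type (SD, n = 3 each). The log2 fold change was 0.075 with an interval of -0.10 to 0.25 (limma adjusted p = 0.621; exact permutation p = 0.4).

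The RUNX genes together made up 13.0, 17.9 and 9.64 TPM in the overexpression libraries, against 10.1, 7.34 and 8.24 TPM in the wild-type libraries. The ranges overlapped, since overexpression replicate 3 was below wild-type replicate 1 (exact two-sided permutation p = 0.2). Cbfb transcripts outnumbered the summed RUNX transcripts in every library, by 3.87, 2.82 and 5.11 times in overexpression and by 4.83, 5.89 and 6.13 times in wild type. That ratio averaged 3.93 ± 1.15 in overexpression and 5.62 ± 0.69 in wild type (SD, n = 3 each; exact permutation p = 0.2). Among the measured genes ordered by mean TPM, Cbfb was of rank 3438 in overexpression and 3615 in wild type, and Runx3 of rank 12196 in overexpression and 13313 in wild type.

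Each gene's share of the RUNX pool had a larger SD over the overexpression libraries than over the wild-type ones. Runx1 gave 54.4%, 38.4% and 39.9% of the summed RUNX TPM in overexpression, against 42.5%, 38.3% and 33.7% in wild type. Runx2 gave 26.3%, 44.6% and 54.1% in overexpression, against 48.9%, 50.6% and 56.2% in wild type. It was the largest part in all 3 wild-type libraries and in overexpression replicates 2 and 3. Runx3 gave 6.04% to 19.2% in overexpression and 8.62% to 11.1% in wild type. None of the shares separated the genotypes (exact two-sided permutation p = 0.4 for Runx1, 0.3 for Runx2 and 0.4 for Runx3). In overexpression the mean levels of Runx1 and Runx2, 5.93 and 5.54 TPM, differed by less than their SDs, and in wild type their library ranges overlapped; Runx3 was below both in every library of either genotype.

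Across the 6 libraries the log2 levels of Runx1 and Runx3 ran closest to each other of the 6 pairs of members, with a Pearson correlation of 0.886, against 0.310 for Runx1 and Runx2 and 0.319 for Runx2 and Runx3. These are descriptions over 6 libraries of 2 genotypes. By the same measure over all tested genes, the patterns most like that of Runx1 were those of Cnrip1 (0.995), Nxt2 (0.994) and Stk4 (0.989). Those most like Runx3 were Dab2, an endocytic adaptor gene (0.997), Nostrin, which encodes a protein that binds endothelial nitric oxide synthase (0.996), and Mfap4, a gene of an elastic fibre protein (0.991). Dab2 stood at 125, 131 and 85.7 TPM in overexpression, against 91.7, 90.4 and 88.4 TPM in wild type, with overexpression replicate 3 again the low one of its genotype. Those most like Runx2 were Sfr1 (0.998), Mphosph6 (0.985) and Pdcd10 (0.981), and those most like Cbfb were Senp6 (0.980), Gbp5 (0.979) and Yju2 (0.974).

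None of the partners and regulators of RUNX proteins passed the test. Of 38 listed symbols, 37 were in the table and 36 were tested. Limma called 0, against 0.0152% of all tested genes. At an unadjusted p under 0.05 stood 1 higher and 10 lower, against 10.6% and 8.94% of all tested genes. The list's median log2 fold change was -0.16, beside -0.0090 over all tested genes, and -0.079 without overexpression replicate 2. Smad1, a BMP signal transducer that works with RUNX2, was at 26.8, 25.2 and 27.0 TPM in overexpression, against 34.9, 32.6 and 36.5 TPM in wild type (log2 fold change -0.38, limma adjusted p = 0.128). The 2 genotypes did not overlap for it, as for 27.2% of all tested genes. Hdac5, a deacetylase that can bind RUNX2, had a log2 fold change of -0.35, and Aes, a short member of the Groucho family of RUNX corepressors, had -0.25 at 958 to 1003 TPM in overexpression and 1102 to 1241 TPM in wild type. Cdk4, a cell cycle kinase known to mark RUNX2 for degradation, had -0.18. The single gene on the higher side was Wwp1, a ubiquitin ligase that acts on RUNX2, with 0.26, named after its values were seen. Without overexpression replicate 3, limma called 4 of these genes lower, Smad1, Hdac5, the coactivator gene Wwtr1 and the cofactor gene Zfpm1, the last 2 also named after their values were seen. That fit called 2.12% of all tested genes lower.

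Of the bone and cartilage genes that RUNX2 is known to activate, none passed the test, and several that mark osteoblasts were hardly detected. Of 25 genes 13 were tested and limma called 0, against 0.0152% of all tested genes. At an unadjusted p under 0.05, 8 were higher and 1 lower, against 10.6% and 8.94% of all tested genes. Col10a1, among the 8, averaged 0.709 TPM in wild type and passed the filter through its overexpression values. The median log2 fold change was 0.95 over the 13, and 0.15 when low genes were kept. The osteoblast genes Ibsp, Alpl, Dmp1 and Phex did not exceed 0.282 TPM in any library, and Ibsp was listed at 0 in all 6. Sp7, the osteoblast factor downstream of RUNX2, was at most 0.181 TPM except for 2.88 TPM in wild-type replicate 1. Bglap and Bglap2, the osteocalcin copies, may share reads and were at most 1.35 TPM.

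Fgfr2, a growth factor receptor gene of skeletal precursors, was at 26.2, 36.5 and 22.0 TPM in overexpression, against 13.2, 15.3 and 10.9 TPM in wild type, with no overlap. Its log2 fold change was 1.03 ± 0.19 (SE; limma adjusted p = 0.128). Of all tested genes, 27.2% had no overlap. Col1a1, a chain of type I collagen, was at 312, 444 and 183 TPM in overexpression, against 124, 135 and 107 TPM in wild type (1.27 ± 0.29 SE). Vegfa, a vascular growth factor gene, was the one member lower at an unadjusted p under 0.05, with a log2 fold change of -0.42, and Sparc, a matrix protein gene of bone, was at 1864 to 2078 TPM in overexpression and 1989 to 2012 TPM in wild type. Without overexpression replicate 3, limma called 7 of the 13 higher and 1 lower, against 3.89% and 2.12% of all tested genes. In these libraries Runx2 itself had an interval that included 0, and the macrophage markers had a median log2 fold change of 1.66; their part in this list was not tested.

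The promoters of this list, 27 in all, belonged to 19 of its 25 genes. Col1a1, Sp7, Bglap2, Mmp9, Tnfrsf11b and Dlx5 had none that could be searched. The RUNX core was found in 5 of the 27, those of Spp1, Mmp13, Sparc, Bglap and Dmp1. Of these genes Spp1, Mmp13 and Sparc were tested, and Sparc had a log2 fold change of -0.041 with libraries that overlapped. Spp1, osteopontin, which macrophages also make, stood at 254, 447 and 73.4 TPM in overexpression, against 40.3, 34.7 and 47.7 TPM in wild type. Mmp13, a collagenase gene, stood at 16.9, 12.0 and 6.94 TPM in overexpression, against 4.45, 6.35 and 5.43 TPM in wild type. The libraries of the genotypes did not overlap for either gene, as for 27.2% of all tested genes. Limma gave an adjusted p of 0.133 for Spp1 and 0.155 for Mmp13. The stretches of the 3 tested genes that hold the core, in capitals, are shown beside one of Lyz2, the most abundant macrophage marker.
Spp1, chr5:104434971-104435000, plus strand: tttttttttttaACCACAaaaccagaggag
Mmp13, chr9:7272384-7272413, plus strand: attctgccacaaACCACActtaggaagaaa
Sparc, chr11:55420031-55420060, minus strand: ggtagcacacagcctACCACAaggcaagga
Lyz2, chr10:117282321-117282350, minus strand: caaatgtaggaaACCACAagctgttgggaa

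None of the blood cell genes that RUNX1 or RUNX3 is known to regulate passed the test. Of 28 genes 16 were tested and limma called 0, against 0.0152% of all tested genes. At an unadjusted p under 0.05, 10 were higher and 2 lower, against 10.6% and 8.94% of all tested genes. Itgal and Itgax, among the 10, averaged 0.340 and 0.787 TPM in wild type and passed the filter through their overexpression values. The median log2 fold change was 1.07, or 0.065 when low genes were kept. Cebpa, a factor of myeloid differentiation, was at 8.32, 7.12 and 3.53 TPM in overexpression, against 1.53, 1.92 and 1.39 TPM in wild type (log2 fold change 1.43 ± 0.27 SE, limma adjusted p = 0.128). Cd36, a scavenger receptor gene, had 1.61, and its libraries also did not overlap, as for 27.2% of all tested genes. Csf1, the macrophage growth factor gene, was the most abundant, at 638 to 902 TPM in overexpression and 882 to 976 TPM in wild type, with -0.27. Mertk, a receptor for dying cells, had -0.43. Without overexpression replicate 3, limma called 10 of the 16 higher, against 3.89% of all tested genes. Spi1, Csf1r, Itgam and Cd14 stand in both this list and the macrophage marker list, whose median was 1.66, so these counts are not separate from those of the markers.

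Genes of growth control and TGF-beta signalling that RUNX proteins are known to regulate went in both directions, 13 with a positive log2 fold change and 6 with a negative one. All 19 found in the table were tested and limma called 0, against 0.0152% of all tested genes. At an unadjusted p under 0.05, 7 were higher and 2 lower, against 10.6% and 8.94% of all tested genes. The list had a median log2 fold change of 0.18. The median was 0.068 under quantile normalisation and 0.11 without overexpression replicate 2. Igf1, a growth factor gene, was at 69.8, 60.1 and 30.2 TPM in overexpression, against 14.1, 18.1 and 16.3 TPM in wild type (1.59 ± 0.29 SE, limma adjusted p = 0.128). Sox9, the cartilage factor, was at 18.4, 26.3 and 11.7 TPM in overexpression, against 8.17, 6.55 and 4.71 TPM in wild type (1.36 ± 0.29 SE, limma adjusted p = 0.131). Neither gene overlapped between genotypes, as was so for 27.2% of all tested genes. Ccn2, a target of TGF-beta and YAP, had 0.18 and the chemokine gene Cxcl12 0.23. Tgfbr1 stands in both this list and the bone list, and Dlx5 in the bone and partner lists. Without overexpression replicate 3, limma called 4 of the 19 higher, Igf1, Sox9, Tgfbr1 and the cell cycle inhibitor gene Cdkn2a, the last 2 named after their values were seen. That fit called 3.89% of all tested genes higher.

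**Figure D4:**
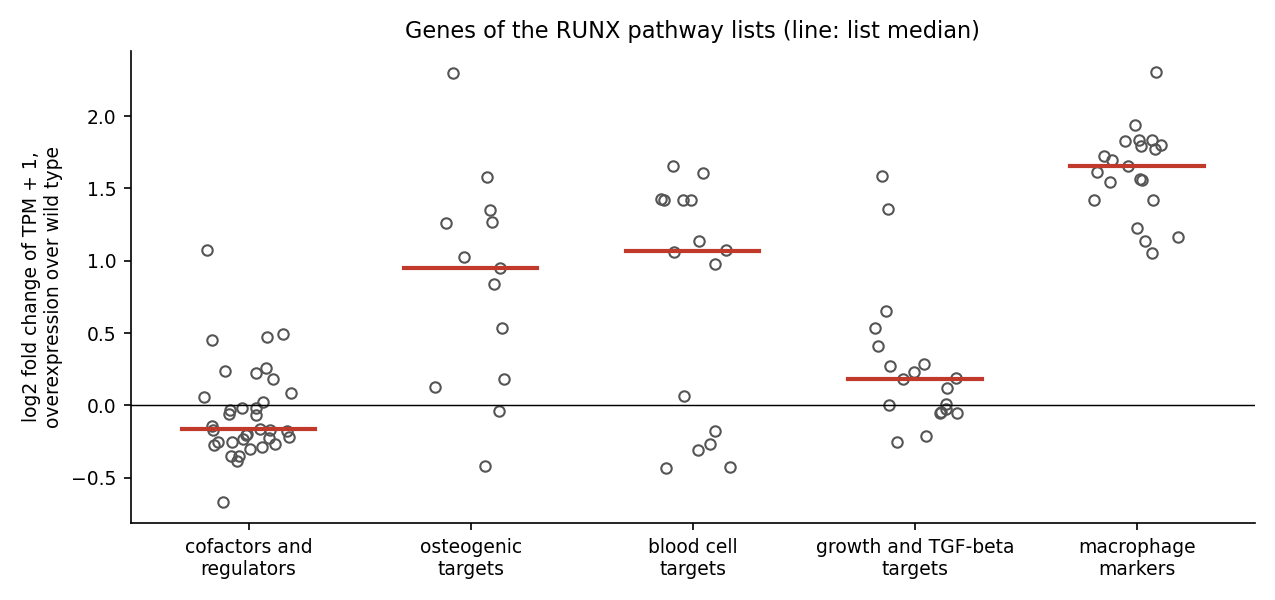
Log2 fold change of TPM + 1, overexpression over wild type (vertical axis), of each tested gene (circles) in the 4 RUNX pathway lists and in the macrophage markers; red lines are list medians. The medians are -0.16 for cofactors and regulators, 0.95 for osteogenic targets, 1.07 for blood cell targets, 0.18 for growth and TGF-beta targets and 1.66 for macrophage markers.

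Over all genes, those with the RUNX core in a promoter were set beside those without. Of 1483 tested genes with TGTGGT or ACCACA in a promoter, 13.0% were higher and 8.29% lower at an unadjusted p under 0.05. Of 8423 tested genes with a promoter in the table and no such match, 9.90% were higher and 9.0% lower. The median log2 fold changes were 0.0051 with the core and -0.013 without it. The core was present in 2 of 37 promoters of cofactors and regulators (5.41%), 5 of 27 of osteogenic targets (18.5%), 6 of 22 of blood cell targets (27.3%), 1 of 19 of growth targets (5.26%) and 4 of 18 of macrophage markers (22.2%), against 16.8% of all promoters. In that order, the promoters belonged to 26, 19, 20, 14 and 15 genes of the lists, and the other listed genes were not searched.

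RUNX footprints were read from the authors' deposited table, which gives 1 pooled value per genotype for each motif. A footprint score rises with accessibility around a motif site and with the dip that a bound protein leaves, and it is assigned by motif, so it does not say which RUNX protein is bound. The Runx1 and RUNX2 motifs stand in a motif cluster of the deposited table with Bcl11B, and RUNX3 in a cluster of its own. No SD or test of its own can be given for these values.

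All 3 RUNX motifs had higher values in the pooled overexpression libraries, and Runx1 and RUNX3 lay near the middle of all motifs. The RUNX2 motif had a mean score of 0.235 in overexpression and 0.213 in wild type over 15606 sites. Its sites called bound numbered 1731 in overexpression, 11.1% (95% Wilson interval 10.6% to 11.6%), and 1535 in wild type, 9.84% (9.38% to 10.3%). The Runx1 motif had a mean score of 0.226 in overexpression and 0.218 in wild type over 45412 sites, with 10.4% bound in overexpression (10.1% to 10.7%) and 9.46% in wild type (9.19% to 9.73%). The RUNX3 motif had 0.206 in overexpression and 0.198 in wild type over 21841 sites, with 8.03% bound in overexpression (7.68% to 8.40%) and 7.35% in wild type (7.01% to 7.71%). The intervals cover counting error only, and the 2 genotypes are scored over the same sites. Those of the genotypes overlapped for RUNX3 and did not for Runx1 and RUNX2, which is no test of a difference between genotypes.

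The authors' change score, with its sign reversed here so that a positive value is higher in overexpression, was 0.29 for RUNX2, 0.12 for RUNX3 and 0.11 for Runx1 in the authors' deposited table. The median of all 879 motifs was 0.11 and 61.9% were above 0, so a positive score is the common direction. By rank from the highest, RUNX2 was at 236, RUNX3 at 421 and Runx1 at 439 of 879. Bcl11B, the cluster partner of RUNX2 and Runx1, was at 0.29 and rank 231. A mark of large change is carried by 96 motifs, 10.9%, of the authors' deposited table, and the 3 RUNX motifs are not among them. Its p-values were 4.39e-154 for RUNX2, 2.63e-126 for RUNX3 and 2.20e-137 for Runx1, but 99.7% of its motifs have a p under 0.05, so these values do not set the RUNX motifs apart. More sites were called bound in overexpression for 62.8% of all motifs.

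**Figure D5:**
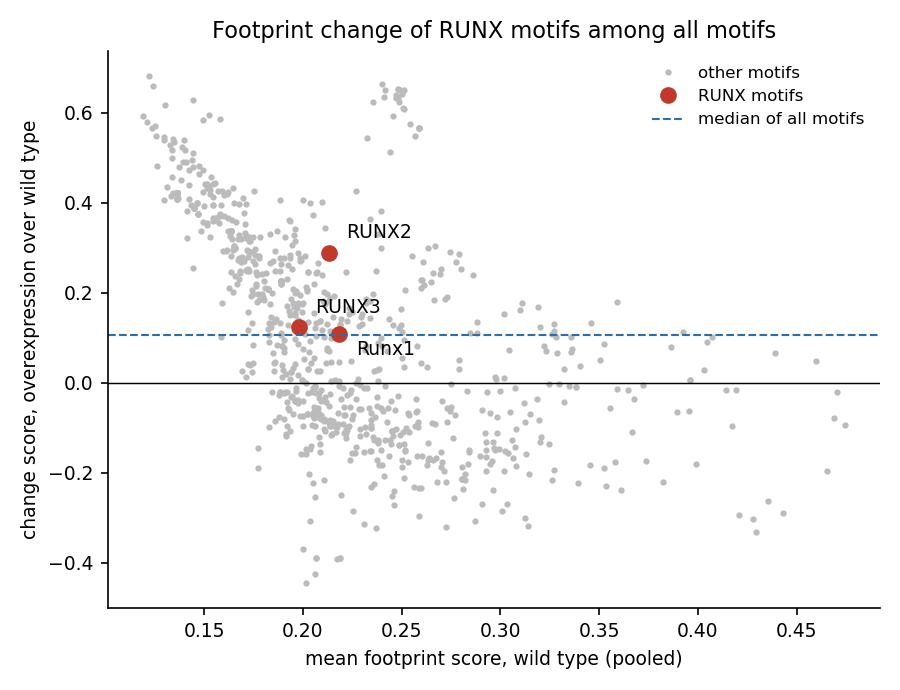
Change score of each motif, overexpression over wild type (vertical axis, no unit), against its mean footprint score in wild type (horizontal axis, pooled libraries, no unit); red marks the 3 RUNX motifs, grey the other motifs, and the dashed line the median of all motifs. Runx1 and RUNX3 lie close to the median of 0.11, and RUNX2 lies above it at 0.29.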

How the data were processed

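The deposited TPM table (kallisto, per the labels; build mm10 per the submitters' processing notes) holds 6 RNA libraries, each column summing to 1000000; its annotation and read numbers were not found in the sources. The deposited footprint table, laid out as TOBIAS BINDetect output per the file headers, gives per motif a mean score and a count of bound sites per genotype, with the libraries of 2 mice merged, a change score (wild type relative to overexpression) and the authors' p-value.

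Genes averaging 1 TPM or more were fitted with limma 3.58.1 in R 4.3.3 (trended variance, two-sided, Benjamini-Hochberg); single values were tested by exact permutation in Python 3.11.15 with scipy 1.17.1. The fit was checked on simulated data. Members and lists were chosen with earlier results of these data known. Named genes are the members, Adamts7, per pathway list the 2 of smallest p and the 2 of highest TPM, per marker list the 2 most abundant, and per member the 3 most correlated genes that are not predicted models, with exceptions stated. Lists covered cofactors and regulators, osteogenic, blood cell and growth targets, and macrophage, lymphocyte, endothelial, osteoblast and chondrocyte, smooth muscle and adventitial fibroblast markers. Sequences are from RefSeq, GRCm38.p6. Each library is 1 mouse, and mouse numbers were not taken to pair the genotypes. All libraries carry the same batch label.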

Additional observations from a re-analysis of the deposited data

How the results depend on the processing

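In limma fits, the number of called genes, 2 in all, was 1 with a minimum mean of 5 TPM, 2728 with library quality weights and 1 with a replicate block, and ranged from 1 (without wild-type replicate 2) to 789 (without overexpression replicate 3) when single libraries were left out. Same-numbered mice had correlations of -0.022, 0.058 and 0.018 in their deviations from the genotype mean. No pairing by number was seen in these values, which cannot exclude one. No member was called under the replicate block. Quality weights gave log2 fold changes of 0.94 for Runx1 (adjusted p = 0.0106), 0.86 for Runx3 (adjusted p = 0.0329) and -0.17 for Runx2. Leaving out single libraries gave 0.54 to 0.91 for Runx1, 0.36 to 1.04 for Runx3 and -0.043 to 0.47 for Runx2, reversed without overexpression replicate 2 at -0.043. Cbfb stayed uncalled under all alternatives.

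List medians ranged over left-out libraries from -0.16 to -0.079 for cofactors and regulators and from 0.11 to 0.20 for growth targets, which was 0.068 under quantile normalisation. With no filter on low genes the osteogenic median was 0.15 and the blood cell median 0.065. Quality weights called 4 cofactors higher and 9 lower, 7 osteogenic targets higher and 1 lower, 10 blood cell targets higher, and 7 growth targets higher and 1 lower. That fit called 20.8% of all 13131 tested genes, 1491 higher and 1237 lower. Without any 1 library the counts ran from 0 to 4 cofactors lower, 0 to 7 osteogenic targets higher and 0 to 1 lower, 0 to 10 blood cell targets higher and 0 to 4 growth targets higher. Those fits called 1 to 789 of all tested genes, at most 6.01%. As log2 ratios of mean scores and of bound shares, the motif changes were 0.051 and 0.13 for Runx1. They were 0.14 and 0.17 for RUNX2 and 0.057 and 0.13 for RUNX3. The median change score of the RUNX motifs was 0.12, and it was 0.16 when each motif cluster was taken once. The cause of these shifts was not tested.

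Among 38 other named genes, Sfr1, Mphosph6 and Pdcd10 were reversed with quality weights (-0.058, -0.038 and -0.016). Leaving out single libraries gave -0.010 to 0.18 for Sfr1 and -0.023 to 0.11 for Mphosph6, both reversed without overexpression replicate 2, and -0.015 to 0.19 for Gbp5 and -0.022 to 0.10 for Yju2, both reversed without wild-type replicate 2. The longer core TGTGGTT was in 5.27% of promoters. The low RUNX levels, at most 7.97 TPM in a library, and the unknown depth limit these comparisons.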

Other observations

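Other genes linked to RUNX proteins differed between single overexpression libraries, and were chosen after their values were seen. Runx1t1, a corepressor gene known from its fusion with RUNX1 in human leukaemia, stood at 3.22, 3.13 and 1.68 TPM in overexpression, against 1.81, 1.83 and 1.30 TPM in wild type (limma adjusted p = 0.308), with overexpression replicate 3 again nearest to wild type. Msx2, a homeobox gene of skeletal development, stood at 0.21, 6.10 and 0.81 TPM in overexpression, against 0.208, 0.231 and 0.127 TPM in wild type (limma adjusted p = 0.364). Only overexpression replicate 2, the library with the highest Runx2, stood above 1 TPM, and Msx2 passed the filter on low values through that library alone.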
